A study of Homo sapiens with 9 samples.

Results

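The report concerns 7 genes that are usually associated with white blood cells and were counted in the carcinoma cell line TYUC-1: LYZ, LCP1, SRGN, CORO1A, LAPTM5, EVI2B and PTPRC. They were taken by symbol from a table of 35762 gene symbols, and all 7 were found. They were chosen by their measured levels in earlier results of these data, so their presence and their levels are given as a description. Whether differences between days entered the choice is not recorded. TYUC-1 is labelled as a neuroendocrine esophageal carcinoma cell line and was grown in suspension. RNA was sequenced after poly-A selection from 9 libraries, 3 on day 0, 3 on day 3 and 3 on day 6 under EPZ-6438, a compound that blocks the histone-methylating enzyme EZH2. The labels give EPZ-6438 as the treatment of all 9 libraries, name a protocol dose of 2 uM EPZ-6438 or DMSO, and do not say whether day 0 cells had received DMSO. No vehicle library of day 3 or day 6 was analysed here, so the drug and the time in culture cannot be told apart. All libraries come from 1 cell line, and the labels call the replicates biological without saying whether they were separate cultures, so p-values measure the spread between these samples. In such bulk samples fewer expressing cells and less RNA per cell cannot be told apart.

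White blood cells share a set of proteins for moving, for granules and for receptor signalling. The actin cytoskeleton of a leukocyte is bundled by L-plastin (LCP1) and remodelled with coronin 1A (CORO1A), which binds actin filaments and the Arp2/3 complex. Serglycin (SRGN) is the proteoglycan that packs granule contents, and lysozyme (LYZ) is a secreted enzyme that cuts bacterial cell walls and is also made by glandular epithelium. CD45 (PTPRC) is a receptor phosphatase that sets the activity of Src family kinases, LAPTM5 is a lysosomal membrane protein that promotes the breakdown of antigen receptors, and EVI2B is a membrane protein encoded inside an intron of NF1. EZH2 is the enzyme within Polycomb repressive complex 2 that methylates histone H3 at repressed genes, many of which have promoters rich in CpG dinucleotides.

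The RefSeq promoter table (GRCh38.p14) matched 4 of the 7 genes: LCP1, CORO1A, LAPTM5 and PTPRC. These 4 promoters are shown as the only ones matched, and they differ in CpG content. A link between CpG content and the changes by day was not tested. Each runs 5′ to 3′ on the strand of its gene and covers 250 bases before to 50 bases after the start, with CpG dinucleotides in capitals.
LCP1 (chr13:46182128-46182427, minus strand): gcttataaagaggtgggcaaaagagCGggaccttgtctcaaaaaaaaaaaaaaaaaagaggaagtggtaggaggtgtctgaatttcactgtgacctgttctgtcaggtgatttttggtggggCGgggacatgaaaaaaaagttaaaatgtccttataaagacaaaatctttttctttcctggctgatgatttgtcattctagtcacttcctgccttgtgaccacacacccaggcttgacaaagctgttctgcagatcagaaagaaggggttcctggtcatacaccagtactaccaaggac
CORO1A (chr16:30183352-30183651, plus strand): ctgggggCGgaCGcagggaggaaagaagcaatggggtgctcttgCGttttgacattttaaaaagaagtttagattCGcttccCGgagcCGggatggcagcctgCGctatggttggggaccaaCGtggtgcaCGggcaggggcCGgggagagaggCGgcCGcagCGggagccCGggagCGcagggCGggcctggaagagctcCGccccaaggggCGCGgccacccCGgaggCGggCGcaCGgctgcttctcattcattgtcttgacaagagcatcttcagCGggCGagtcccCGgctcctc
LAPTM5 (chr1:30757725-30758024, minus strand): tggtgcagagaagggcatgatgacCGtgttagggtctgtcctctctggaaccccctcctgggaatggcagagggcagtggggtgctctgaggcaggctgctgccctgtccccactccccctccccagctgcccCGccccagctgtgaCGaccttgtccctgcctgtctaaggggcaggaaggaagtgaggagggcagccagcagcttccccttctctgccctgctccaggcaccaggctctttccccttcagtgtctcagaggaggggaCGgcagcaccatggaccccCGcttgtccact
PTPRC (chr1:198638790-198639089, plus strand): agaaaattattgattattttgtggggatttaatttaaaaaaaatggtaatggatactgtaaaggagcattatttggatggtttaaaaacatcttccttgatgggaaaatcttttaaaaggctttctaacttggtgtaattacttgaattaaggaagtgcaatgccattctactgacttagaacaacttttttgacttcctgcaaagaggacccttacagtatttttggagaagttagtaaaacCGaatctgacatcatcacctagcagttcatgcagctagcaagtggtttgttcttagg
The CORO1A promoter held 26 CpG dinucleotides, against a median of 14 over 35116 promoters of the same length. Those of LAPTM5, LCP1 and PTPRC held 5, 2 and 1, all below that median. The motif GAGGAA, a purine-rich core bound by factors of the PU.1 type, was searched on both strands. It occurred in the LCP1 promoter (position -193 from the start) and the CORO1A promoter (position -233), and in 27.9% of all promoters. The RUNX-type core TGTGGT occurred in the LCP1 promoter at position -31 and in 13.1% of all promoters, and the octamer ATGCAAAT occurred in none of the 4 and in 1.77% of all promoters. These matches describe the letters in the windows and show no binding.

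Libraries held 21638874 to 31235055 estimated counts. Replicate 2 of day 0 stood apart from the other 2 libraries of its day, with a chi-square per gene of 55.4 and 47.6 against them, while the other replicate pairs lay between 3.53 and 16.2. The epithelial markers EPCAM, CDH1, KRT8, KRT18, KRT19, KRT7, CLDN4, CLDN7, ELF3 and ESRP1 all had a mean above 1 CPM (counts scaled to the normalized library size). The neuroendocrine granule protein gene CHGA had 0 counts in all libraries. EZH2 itself was at 193 ± 3.95 CPM on day 0, 167 ± 2.34 CPM on day 3 and 150.3 ± 8.46 CPM on day 6 (SD, n = 3). Of 15345 genes tested, 40.6% were called on day 3 against day 0, 54.6% on day 6 against day 0 and 16.3% on day 6 against day 3. Of the genes called against day 0, 55.3% were higher on day 3 and 53% on day 6, and with library size as the only scaling 69.2% and 66.6% were.

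Expression among the 7 genes spanned from among the most abundant transcripts of the line to near the detection limit. Per kilobase of exon length, LYZ averaged 230 CPM over the 9 libraries and ranked 87 of 33545 genes with a length, and LCP1 averaged 84.1 CPM and ranked 350. SRGN (7.12 CPM per kilobase) and CORO1A (3.57) lay at percentiles 82.8 and 75.2. LAPTM5 (0.356), EVI2B (0.262) and PTPRC (0.0486) lay at percentiles 61.6, 60.1 and 49.8. Over all 9 libraries LAPTM5 had 268 counts, EVI2B 125 and PTPRC 102. Since levels chose the genes, these values describe them and are no test of their name, and the last 3 genes were only sparsely counted. Exon lengths taken as the longest annotated transcript put LYZ at 265 CPM per kilobase (rank 119) and LCP1 at 108 (rank 409). CORO1A was then at 6.01 and PTPRC at 0.0827 CPM per kilobase.

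**Figure D1:**
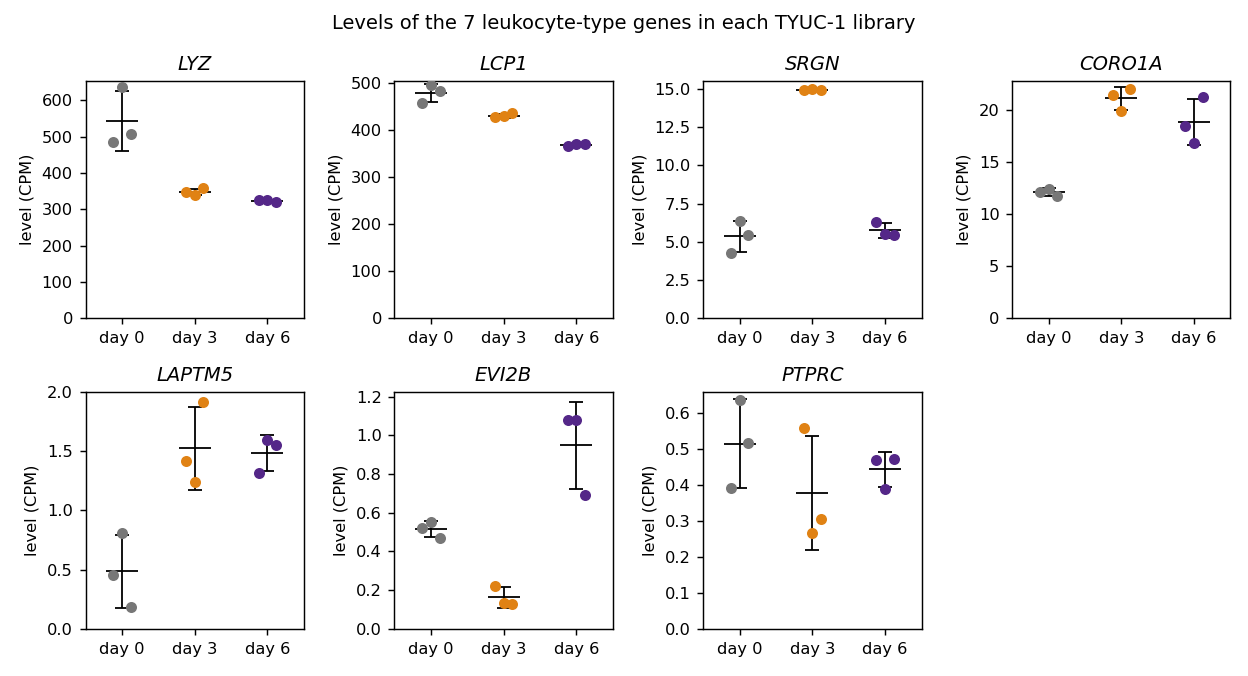
Level of each gene in CPM (vertical axis, linear from 0) in the 3 libraries of each day (points), with the mean and SD of the day (black bars). LYZ and LCP1 are lower on later days, CORO1A and LAPTM5 are higher on day 3 and day 6 than on day 0, SRGN is high on day 3 (14.92 to 14.99 CPM) relative to both other days, EVI2B is low on day 3, and the days of PTPRC overlap.

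The first comparison sets day 3 against the start of treatment. LYZ and EVI2B fell, and SRGN, CORO1A and LAPTM5 rose. These are 5 of the 7 genes, with 40.6% of all tested genes called (22.5% higher and 18.1% lower). The comparison of day 6 with day 0 also called 5 of the 7: LYZ and LCP1 fell, and CORO1A, LAPTM5 and EVI2B rose, with 54.6% of all tested genes called (28.9% higher and 25.7% lower). On day 6 against day 3, EVI2B rose and SRGN and LCP1 fell, with 16.3% of all tested genes called (11.5% higher and 4.76% lower). Without replicate 2 of day 0 the 3 counts were 6, 5 and 3, with 46.7%, 60.8% and 30% of all tested genes called. The median log2 fold change of the 7 genes was -0.15, 0.12 and -0.11 in these comparisons, against 0.01, 0.01 and -0.00 (-0.001254) for all tested genes. Separate ranges of the compared days were seen for 6, 5 and 4 of the 7 genes, against 53.8%, 58.7% and 43.5% of all tested genes. All adjusted p-values given for genes are from edgeR's quasi-likelihood test with Benjamini-Hochberg adjustment over the 15345 genes, and since the 7 genes were chosen with results of these data known they are no independent support.

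**Figure D2:**
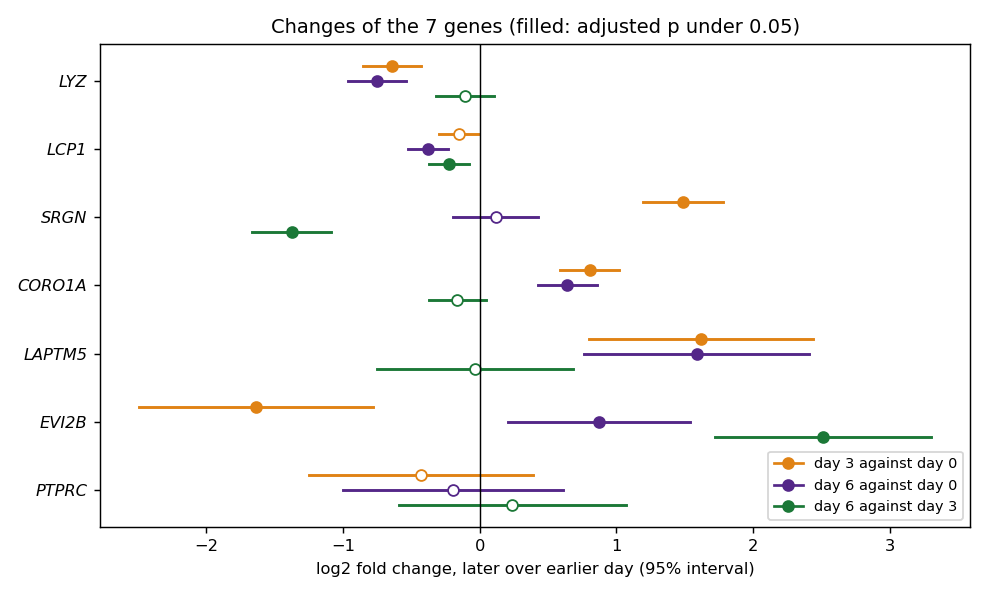
Log2 fold change of the later over the earlier day (horizontal axis) with its 95% interval for each gene and comparison; filled points passed an adjusted p of 0.05. The intervals of SRGN run to opposite sides of 0 for day 3 against day 0 (1.49) and day 6 against day 3 (-1.37), as do those of EVI2B (-1.63 and 2.51), and all 3 intervals of PTPRC cross 0.

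LYZ (ENSG00000090382.6, chromosome 12, 69348341 to 69354234, plus strand, GRCh38) encodes lysozyme. It was at 485, 638 and 508 CPM in the day 0 libraries, at 348, 341 and 358 CPM on day 3 and at 325, 324 and 321 CPM on day 6. All 6 later libraries lay below all 3 of day 0, of which replicate 2 was the highest. The level on day 3 averaged 349 ± 8.53 CPM, against 544 ± 82.3 CPM on day 0 (SD, n = 3 each), a log2 fold change of -0.64 (SE 0.10, adjusted p = 0.000381). On day 6 it averaged 323 ± 2.52 CPM, with a log2 fold change against day 0 of -0.75 (SE 0.10, adjusted p = 5.1e-05). Without replicate 2 of day 0 these were -0.52 and -0.63. The day 6 libraries also lay below those of day 3, but the difference did not pass (log2 fold change -0.11, 95% interval -0.32 to 0.10, adjusted p = 0.517).

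Of the 9 other lysozyme family genes, 6 had 0 counts throughout, and LYG1, a goose-type lysozyme gene, was the only one with a mean of at least 1 CPM. LYG1 was at 2.1 ± 0.544, 2.17 ± 0.293 and 1.91 ± 0.376 CPM on days 0, 3 and 6. Other secretory antimicrobial genes of glands were scarce: of 17, 15 had a mean under 1 CPM. The airway and gland mucin MUC5B rose to 28.6 ± 4.74 CPM on day 6, against 1.77 ± 0.413 CPM on day 0 (log2 fold change 3.99, adjusted p = 8.42e-09). The protease inhibitor SLPI had 39 counts over the day 6 libraries, against 3 over those of day 0, a ratio of 12.9 (95% interval 4.09 to 65.1), and LCN2, which binds bacterial siderophores, had 33 against 9. Of the 6 tested, 2 rose on day 3 and 3 rose on day 6 against day 0, and none fell. That is 33.3% and 50% called, against 40.6% and 54.6% of all tested genes (22.5% and 28.9% higher). SLPI and LCN2 are 2 of the 3 that rose on day 6, and both passed the filter on low counts only through later libraries, where they are high, so this tally is partly set by the filter.

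LCP1 (ENSG00000136167.13, chromosome 13, 46125920 to 46211871, minus strand) encodes the plastin of leukocytes. Its levels were 458, 494 and 483 CPM on day 0, 427, 429 and 435 CPM on day 3 and 365, 370.5 and 369 CPM on day 6. The days did not overlap and lay in descending order. The step on day 3 did not pass, with 430.2 ± 4.28 CPM on day 3 against 479 ± 18.7 CPM on day 0, a log2 fold change of -0.15 with an adjusted p of 0.0841 (SE 0.07). It did pass by DESeq2 (adjusted p = 0.0123) and without replicate 2 of day 0 (0.0468). On day 6 the level was 368 ± 2.75 CPM, with a log2 fold change against day 0 of -0.38 (SE 0.07, adjusted p = 0.000498). Against day 3 the fall by day 6 (log2 fold change -0.22, adjusted p = 0.0391) did not pass in 11 of 17 alternatives, and over all 17 the adjusted p ranged over 0.0018 to 0.143. The 11 include the fits without any 1 library of day 3 or day 6 (0.0712 to 0.143), the fit without replicate 3 of day 0 (0.0571), scaling by library size only (0.0611) and both other filters on low counts (0.0785 and 0.0822).

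Among the plastins, which bundle actin filaments, LCP1 was the most abundant per length on every day. It took 56.6% ± 2.22 of the summed plastin level per kilobase on day 0, 56% ± 0.391 on day 3 and 52.2% ± 1.32 on day 6 (SD, n = 3). PLS1, the plastin of intestinal microvilli, fell to 105 ± 7.92 CPM on day 6, against 133 ± 17.9 CPM on day 0 (log2 fold change -0.34, adjusted p = 0.0102). PLS3, the broadly expressed plastin, did not pass in any comparison, with a log2 fold change of -0.02 on day 6 against day 0 (adjusted p = 0.829).

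SRGN (ENSG00000122862.4, chromosome 10, 69088106 to 69104811, plus strand) encodes serglycin. It had 4.28, 6.34 and 5.45 CPM on day 0, 14.95, 14.99 and 14.92 CPM on day 3 and 6.32, 5.52 and 5.43 CPM on day 6. Day 3 stood above both other days in every library, and days 6 and 0 overlapped. The day 3 mean was 2.79 times that of day 0 (log2 fold change 1.49, SE 0.13, adjusted p = 9e-06). Day 6 was lower than day 3 (log2 fold change -1.37, SE 0.13, adjusted p = 2.4e-05). Against day 0 the day 6 level differed by 0.12 on the log2 scale, with a 95% interval of -0.19 to 0.42 (adjusted p = 0.512).

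Of 14 other proteoglycan core protein genes tested, 8 rose and none fell on day 3, and 9 rose and 1 fell on day 6, each against day 0. On day 6 against day 3, 5 rose and 1 fell. In the 3 comparisons 57.1%, 71.4% and 42.9% of these 14 were called, against 40.6%, 54.6% and 16.3% of all tested genes. Of the 9 that rose on day 6, 3 would not have passed the filter on the day 0 libraries alone. GPC1, a glypican, reached 34.5 ± 1.03 CPM on day 3 and 62 ± 7.49 CPM on day 6, with 13 ± 1.65 CPM on day 0, and was higher on day 6 than on day 3 (adjusted p = 0.000173). The syndecan SDC1 was at 13.3 ± 0.962, 27.2 ± 2.65 and 33.9 ± 3.0 CPM on days 0, 3 and 6. The genes nearest to SRGN in profile were TMEM176B and TMEM176A, a pair of membrane protein genes. TMEM176B was at 29.4 ± 3.48, 77.3 ± 2.8 and 43.7 ± 2.82 CPM on days 0, 3 and 6. Nearness was the root mean square difference of log2 CPM, centred per gene, over the 9 libraries (0.256 and 0.277 for these genes, among 11040 genes of at least 5 CPM).

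CORO1A (ENSG00000102879.15, chromosome 16, 30182827 to 30189076, plus strand) encodes coronin 1A. Its levels were 12.2, 12.5 and 11.7 CPM on day 0, 21.5, 19.9 and 22.1 CPM on day 3 and 18.5, 16.9 and 21.3 CPM on day 6. Every library of days 3 and 6 lay above day 0, and days 6 and 3 overlapped. On the log2 scale the rise was 0.80 (SE 0.10, adjusted p = 8.7e-05) on day 3 and 0.64 on day 6 (SE 0.10, adjusted p = 0.000187). Day 6 against day 3 gave -0.16 (95% interval -0.37 to 0.05, adjusted p = 0.299).

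All 6 other coronin genes were called on day 3 and on day 6 against day 0, with 5 higher and 1 lower each time. Over all tested genes 40.6% and 54.6% were called in these comparisons. CORO1C, the most abundant coronin of the line per length, fell to 227 ± 5.67 CPM on day 6, against 288 ± 9.61 CPM on day 0 (log2 fold change -0.34, adjusted p = 0.000931). CORO2A reached 13.7 ± 0.294 CPM on day 6, against 5.65 ± 0.471 CPM on day 0, and CORO2B 2.2 ± 0.115 CPM against 0.268 ± 0.125 CPM. CORO6 reached 6.61 ± 0.712 CPM against 3.52 ± 0.21 CPM, and CORO1B and CORO7 rose by 0.32 and 0.33 on the log2 scale. CORO2B passed the filter only through days 3 and 6, where it is high. CORO1A took 3.63% ± 0.15 of the summed coronin level per kilobase on day 0, 5.95% ± 0.381 on day 3 and 5.68% ± 0.461 on day 6. None of the 15 tested genes of the Arp2/3 complex and other actin regulators rose on day 6 against day 0, and 4 fell, among them ACTR2 (699 ± 57.4 CPM against 937 ± 69.6 CPM) and ACTR3 (173 ± 10.3 CPM against 232 ± 33.5 CPM). The 4 are 26.7% of the 15, near the 25.7% of all tested genes called lower, while 28.9% of all were called higher.

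**Figure D3:**
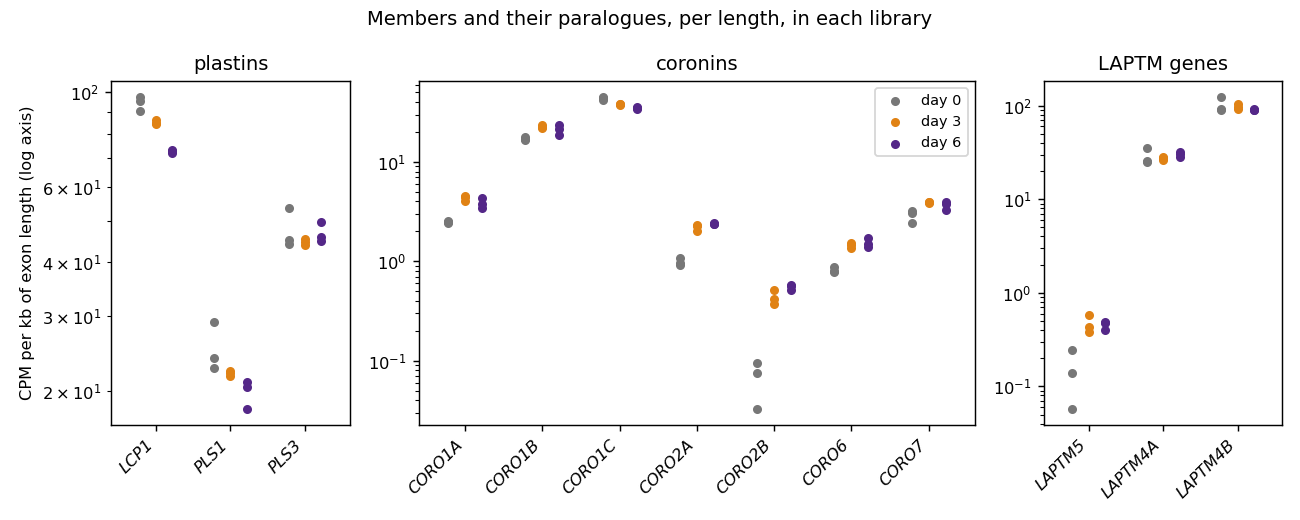
Level per kilobase of exon length (vertical log axis) in each library (points) of the plastins, the coronins and the LAPTM genes, coloured by day. LCP1 lies above PLS1 and PLS3 on every day, CORO1A lies between the abundant CORO1C and the scarce CORO2B, and LAPTM5 lies far below LAPTM4A and LAPTM4B.

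LAPTM5 (ENSG00000162511.7, chromosome 1, 30732469 to 30757820, minus strand) had 14, 19 and 4 counts in the day 0 libraries, 38, 37 and 44 on day 3 and 39, 37 and 36 on day 6. These are 0.457, 0.808 and 0.188 CPM on day 0, 1.42, 1.24 and 1.91 CPM on day 3 and 1.31, 1.59 and 1.55 CPM on day 6. Every library of days 3 and 6 lay above day 0, where replicate 3 was the lowest. In pooled counts day 3 was 3.04 times day 0 (95% interval 2.09 to 4.53) and day 6 was 3.0 times day 0 (2.05 to 4.47), intervals that cover counting error only. Both rises passed, day 3 with 1.62 (SE 0.37, adjusted p = 0.00518) and day 6 with 1.59 in log2 fold change (SE 0.38, adjusted p = 0.00366). LAPTM5 passed the filter on low counts through days 3 and 6, where it is high. Day 6 against day 3 gave -0.03 (95% interval -0.75 to 0.69). The relatives LAPTM4A and LAPTM4B, lysosomal membrane protein genes that many cell types express, passed in no comparison. LAPTM5 took 0.108% ± 0.0537 of the summed level per kilobase of the 3 genes on day 0, 0.368% ± 0.0686 on day 3 and 0.372% ± 0.0375 on day 6.

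EVI2B (ENSG00000185862.6, chromosome 17, 31303766 to 31314112, minus strand) had 16, 13 and 10 counts on day 0, 6, 4 and 3 on day 3 and 32, 25 and 16 on day 6. These are 0.523, 0.553 and 0.470 CPM on day 0, 0.224, 0.134 and 0.130 CPM on day 3 and 1.08, 1.08 and 0.689 CPM on day 6. No 2 days overlapped, with day 3 the lowest and day 6 the highest. Day 3 held 13 pooled counts against 39 on day 0, a ratio of 0.315 (95% interval 0.154 to 0.603, adjusted p = 0.00617). Day 6 held 73 counts, 5.88 times day 3 (3.23 to 11.6, adjusted p = 0.000485). The rise over day 0 (ratio 1.85, interval 1.24 to 2.81, adjusted p = 0.0285) passed in 10 of 16 alternatives, and over all 16 the adjusted p lay between 0.0176 and 0.11. EVI2B passed the filter on low counts through days 0 and 6, with no day 3 library over its cutoff, so both differences from day 3 are of a gene let in by the days where it is high. The rise over day 0 did not pass in 6: DESeq2 (0.11), no filter on low counts (0.0769), and the fits without replicate 1 (0.0732) or 3 (0.0811) of day 0 or without replicate 1 (0.109) or 2 (0.0887) of day 6.

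The neighbours of EVI2B in the same NF1 intron are EVI2A and OMG. EVI2A was at 0.497 ± 0.196, 0.363 ± 0.0132 and 0.555 ± 0.121 CPM on days 0, 3 and 6 and passed in no comparison. OMG, a myelin glycoprotein gene, fell to 4.42 ± 0.549 CPM on day 6, against 10.1 ± 1.46 CPM on day 0 (log2 fold change -1.19, adjusted p = 2.22e-05). The host gene NF1, on the opposite strand, was at 184 ± 24.9, 164 ± 3.18 and 164 ± 10.1 CPM and passed in no comparison. No label says that counting was by strand, so reads of the NF1 intron and of EVI2B cannot be told apart. A further gene model on the strand of EVI2B, AC134669.1, overlaps it and held 7 pooled counts on day 0, 1 on day 3 and 0 on day 6.

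PTPRC (ENSG00000081237.19, chromosome 1, 198638457 to 198757476, plus strand), the gene of CD45 and the defining surface protein of leukocytes, was near the detection limit. It had 12, 15 and 11 counts on day 0, 15, 8 and 7 on day 3 and 14, 9 and 11 on day 6. That is 0.392, 0.638 and 0.517 CPM on day 0, 0.559, 0.268 and 0.304 CPM on day 3 and 0.471, 0.388 and 0.474 CPM on day 6, where 3 counts correspond to 0.098 to 0.141 CPM. The days overlapped in every comparison. The pooled ratio to day 0 was 0.747 on day 3 (95% interval 0.447 to 1.24) and 0.886 on day 6 (0.541 to 1.45), so a change within these bounds was not detectable at this depth. The adjusted p was 0.386 for day 3 and 0.683 for day 6, each against day 0, and 0.745 between the later days.

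Of 19 other receptor tyrosine phosphatase genes, 9 had a mean of at least 1 CPM. Of 12 tested, 7 rose on day 3 and 8 on day 6 against day 0, and none fell. This makes 58.3% and 66.7% called, against 40.6% and 54.6% of all tested genes (22.5% and 28.9% higher). Of the 8, 4 (PTPRK, PTPRB, PTPRN2 and PTPRO) had no day 0 library over the filter's cutoff and passed only through later days, so the tally is partly set by the filter. PTPRK reached 8.89 ± 0.465 CPM on day 6, against 0.108 ± 0.0293 CPM on day 0, and PTPRU 12.6 ± 1.96 CPM against 1.0 ± 0.234 CPM. PTPRG reached 15 ± 0.458 CPM on day 6, against 5.3 ± 0.287 CPM on day 0. PTPRC took 0.0968% ± 0.0354 of the summed level per kilobase of 20 such genes on day 0, 0.0602% ± 0.0241 on day 3 and 0.0677% ± 0.00477 on day 6.

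The Src family kinases are substrates of CD45. Of 10 tested genes of these kinases and other CD45 partners, 2 rose and 1 fell on day 3, and 6 rose and 1 fell on day 6 against day 0. Their shares called were 30% and 70%, against 40.6% and 54.6% of all tested genes. The Src family kinase gene FYN reached 56.6 ± 0.282 CPM on day 6, against 28.1 ± 2.2 CPM on day 0, and LYN 34.5 ± 1.95 CPM against 22.1 ± 3.5 CPM. The adaptor SKAP1 had 61 pooled counts on day 6 against 2 on day 0, a ratio of 30.2 (95% interval 8.01 to 255). SKAP1 is 1 of the 6 that rose and passed the filter only through day 6, where it is high.

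The genes nearest in profile to the other members were MRPS35 and MAGOHB for LYZ (root mean square difference 0.04 and 0.0411), SPATS2 and TERF2 for LCP1 (0.0275 and 0.0276) and PHGDH and ROGDI for CORO1A (0.0598 and 0.0637). MRPS35, a mitochondrial ribosome gene, was at 383 ± 67.4, 243 ± 6.85 and 224 ± 10.9 CPM on days 0, 3 and 6. PHGDH, the first enzyme of serine synthesis, was at 227 ± 4.04, 399.6 ± 14.2 and 337 ± 20.4 CPM. For the 3 scarce genes the nearest lay farther off: APOBEC3B (0.297) for LAPTM5, MYOF (0.289) for EVI2B and RGPD1 (0.173) for PTPRC.

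The presence of leukocyte-type transcripts was set against markers that define white blood cell types. Of 50 markers of T cells, B and plasma cells, myeloid cells and cytotoxic cells, 41 had a mean under 1 CPM and 11 had 0 counts in all 9 libraries. Those at 0 were CD3D, CD2, MS4A1, C1QA, C1QB, C1QC, MPO, NKG7, PRF1, GZMA and GZMK, each of which could be at most 0.141 CPM in the shallowest library. All 50 together summed to 26.8 to 29.2 CPM in the day 0 libraries, 29.7 to 34.9 CPM on day 3 and 37.3 to 42.3 CPM on day 6, while the 7 genes summed to 961 to 1150 CPM, 806 to 832 CPM and 718 to 720 CPM on the same days. LYZ and LCP1 made up 98.2%, 95.3% and 96.2% of the sums of the 7, and the other 5 genes summed to 17.8 to 20.8 CPM on day 0, 36.5 to 39.4 CPM on day 3 and 25.4 to 29.4 CPM on day 6. TYROBP, the signalling adaptor of myeloid and NK cells, had 1 count in all. The 9 markers with a mean of at least 1 CPM were AIF1, CD14, CYBB, S100A9, CD68, ITGAM, PAX5, FCRL5 and KLRD1, of which AIF1 was the highest at 6.42 CPM.

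**Figure D4:**
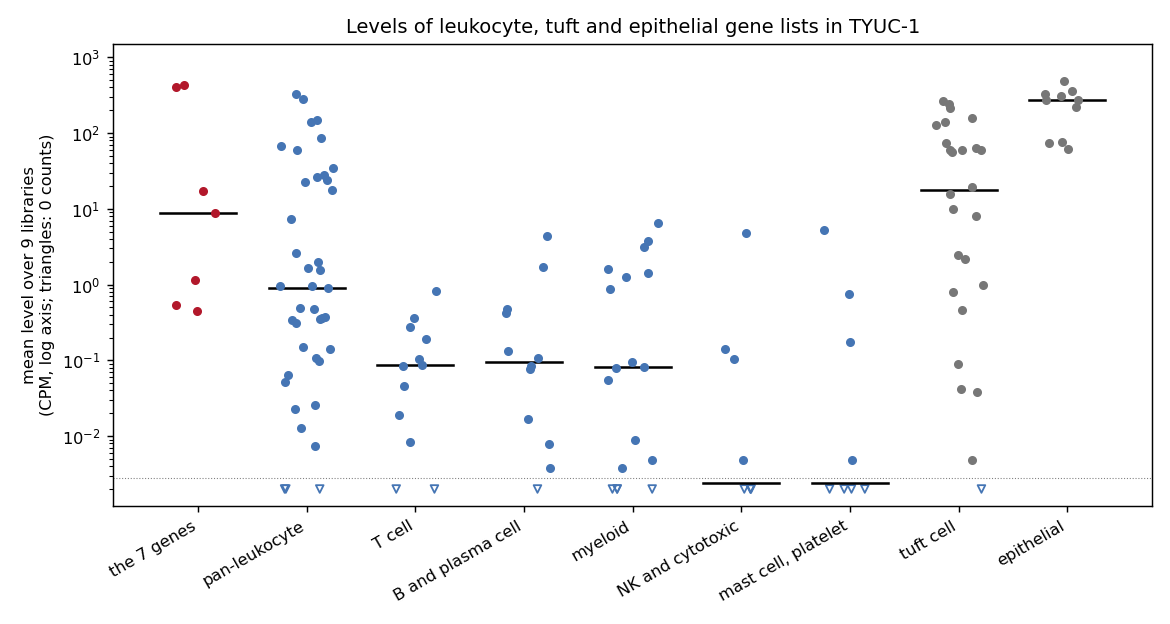
Mean level over the 9 libraries (vertical log axis, CPM) of each gene (points) in the 7-gene group and in lists of leukocyte, tuft cell and epithelial genes, with the list median (black line) and genes at 0 counts as triangles below the dotted line. LYZ and LCP1 (405 and 426 CPM) lie among the epithelial markers on this axis, which is not scaled by length, and no T cell marker reaches 1 CPM. Per kilobase of exon length LYZ (230 CPM) lies above EPCAM (144 CPM), the highest epithelial marker, and LCP1 (84.1 CPM) lies among the epithelial markers.

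Some of these markers moved with the days. S100A9, a calcium-binding protein of neutrophils and of squamous epithelium, was at 4.43 ± 1.24 CPM on day 6, against 0.329 ± 0.0871 CPM on day 0 (log2 fold change 3.77, adjusted p = 9.14e-06), with 346 and 24 pooled counts, and on day 3 had 6 (adjusted p = 0.0329 against day 0). It passed the filter only through day 6, where it is high. PAX5, a B cell and neural transcription factor, reached 7.75 ± 1.07 CPM on day 6, against 1.96 ± 0.41 CPM on day 0. The integrin gene ITGAM was at 0.43 ± 0.165, 2.27 ± 0.334 and 1.1 ± 0.206 CPM on days 0, 3 and 6, higher than day 0 on both later days and lower on day 6 than on day 3 (adjusted p = 0.0154). ITGAM and CD8A passed the filter through days 3 and 6, with 1 day 0 library each over its cutoff. CYBB, the NADPH oxidase subunit of phagocytes, fell to 2.31 ± 0.518 CPM against 4.31 ± 0.31 CPM. ITGA2B, the platelet integrin, rose to 7.2 ± 1.05 CPM on day 6, against 2.63 ± 0.152 CPM on day 0. Of 4 tested B and plasma cell markers 3 rose on day 6 against day 0 (75% called), 2 of them under the filter on day 0 alone. Of 7 tested myeloid markers 2 rose, both under that filter, and 1 fell (42.9% called). The T cell and cytotoxic lists had no call on day 6 against day 0 in 2 and 1 tested genes, with 54.6% of all tested genes called. CD8A had 69 pooled counts on day 6 against 34 on day 0 and missed the threshold (adjusted p = 0.065), while on day 3, with 87, it passed (adjusted p = 0.0353). KLRD1 was at 4.6 ± 0.349 CPM against 4.97 ± 1.83 CPM, and no erythroid marker passed the filter on low counts.

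Beyond the 7 genes, 41 genes expressed across white blood cells were examined. Of these, 18 had a mean of at least 1 CPM and 23 did not. Abundant were HCLS1 (332 CPM over the 9 libraries), a cortactin-like actin regulator, CD44 (282 CPM), ARHGDIB (148 CPM), FYB1 (142 CPM) and SPN (86.6 CPM), while CD48 and SASH3 had 0 counts. Of 26 tested, 14 rose and 3 fell on day 6 against day 0, and 9 rose and 2 fell on day 3 against day 0. The shares called were 65.4% on day 6 and 42.3% on day 3, against 54.6% and 40.6% of all tested genes. Of the 14 that rose on day 6 and the 9 that rose on day 3, 5 and 3 would not have passed the filter on the day 0 libraries alone, so these tallies are partly set by the filter.

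The largest rise on day 6 among the 26 tested was that of LSP1, a leukocyte actin-binding protein, at 19.9 ± 1.34 CPM on day 6, against 0.172 ± 0.0778 CPM on day 0 (1507 and 13 pooled counts, log2 fold change 6.81, adjusted p = 1.29e-09). LSP1 passed the filter only through days 3 and 6, where it is high. The chemokine receptor gene CXCR4 reached 33.7 ± 4.46 CPM on day 6, against 6.26 ± 1.95 CPM on day 0, and the GTPase gene RAC2 46.3 ± 4.54 CPM against 22 ± 3.46 CPM. IRF8, a transcription factor of myeloid and B cells, fell to 20.5 ± 1.23 CPM on day 6, against 34.4 ± 1.6 CPM on day 0 (log2 fold change -0.74, adjusted p = 8.54e-06). HCLS1, CD44, ARHGDIB and SPN did not pass in either comparison with day 0.

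**Figure D5:**
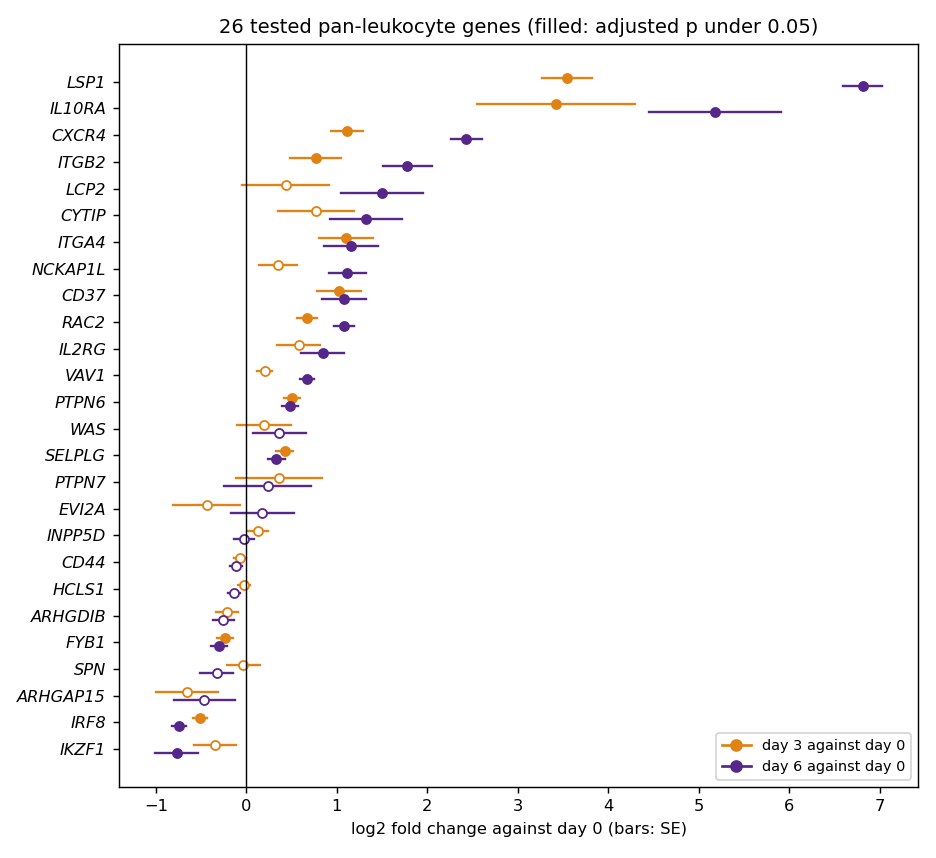
Log2 fold change against day 0 (horizontal axis, bars SE) on day 3 and on day 6 of the 26 tested pan-leukocyte genes; filled points passed an adjusted p of 0.05. LSP1 (6.81 on day 6) and IL10RA (5.18) lie farthest to the right, both with no day 0 library over the filter's cutoff, and IKZF1 (-0.77) and IRF8 (-0.74) fell on day 6.

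Transcription factors of blood cells were in part abundant. MYB was at 141 ± 10.9, 120.2 ± 1.82 and 131 ± 5.74 CPM on days 0, 3 and 6, RUNX1 at 62.4 ± 1.48, 58.3 ± 1.83 and 52.9 ± 0.0764 CPM. SPI1, which encodes PU.1, had 11 pooled counts on day 0, 33 on day 3 and 14 on day 6 and passed in no comparison. SPI1 entered the test only through day 3, where it is high, and at these counts the lack of a call does not show a stable level. Of 25 tested factors, 9 rose and 2 fell on day 3, and 9 rose and 6 fell on day 6 against day 0, with 1 of the 9 each time under the filter on day 0 alone. Among the 25, 44% and 60% were called, near the 40.6% and 54.6% of all tested genes. LMO2 reached 12.3 ± 0.763 CPM on day 6, against 4.26 ± 1.03 CPM on day 0, and TCF7 32.8 ± 2.46 CPM against 20 ± 1.11 CPM.

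Tuft cells, chemosensory cells of epithelia that depend on POU2F3, carry several haematopoietic signalling genes. POU2F3 was at 285 ± 7.11, 289 ± 5.92 and 227 ± 7.51 CPM on days 0, 3 and 6, and fell on day 6 against day 0 (log2 fold change -0.32, adjusted p = 0.00141). Of 26 tuft cell genes, 18 had a mean of at least 1 CPM, and of 21 tested 7 rose and 7 fell on day 6 against day 0. Called were 66.7% of the 21, against 54.6% of all tested genes (28.9% higher and 25.7% lower). Of the 7 that rose, 1 was under the filter on day 0 alone. AVIL fell to 29.4 ± 1.58 CPM on day 6, against 70.6 ± 3.96 CPM on day 0, and the kinase gene BMX to 97.1 ± 4.81 CPM against 160.5 ± 14.2 CPM. MATK reached 5.4 ± 0.448 CPM against 0.469 ± 0.0863 CPM.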

How the data were processed

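RNA was measured in 9 TYUC-1 libraries. The authors deposited estimated counts per gene symbol, whole numbers that were not scaled to a common total. Tools named per the submitters' processing notes are kallisto 0.44.0, bcl2fastq 2.19 and DESeq2, and builds GRCh38, GRCm38 and hg38, without roles, so how transcripts were summed to genes is not given in the sources used here. Kallisto shares reads between similar transcripts by estimation. From the deposited expected counts, rounded to whole numbers, TMM-scaled CPM values were computed and edgeR 4.0.16 (R 4.3.3) fitted 1 mean per day over all 9 libraries. The filter filterByExpr (minimum count 10) left 15345 genes, including all 7 members; a scarce gene can enter through the days where it is high (cutoff 0.385 CPM in 3 libraries). The threshold was an adjusted p of 0.05. Exact 95% intervals for ratios of pooled counts, and the upper limit of 3 counts at 0, cover counting error only. Lengths and coordinates are from GENCODE release 29 (GRCh38), matched by symbol. Levels per length used the union of exons. The fit was tested on simulated data.

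The members and lists were chosen with earlier results of these data known. Named were the members, EZH2, paralogues and neighbours, up to 4 genes of each list with the lowest p among those called on day 6 against day 0 or else up to 2 with the highest mean, and the 2 genes nearest each member in profile. Other genes (ARHGDIB, HCLS1, CD44, FYB1, SPN, MYB, RUNX1, SPI1, POU2F3, IL10RA, IKZF1, TYROBP, CHGA, genes at 0 counts and markers of at least 1 CPM) were named after their values were seen. Some genes of the lists are not reported here. DESeq2 1.42.0 and limma-voom (limma 3.58.1) were alternatives.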

Additional observations from a re-analysis of the deposited data

How the results depend on the processing

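The 7 genes were tested under 17 alternatives each where they passed the filter, 348 fits of a gene and comparison in all. The call and direction held in 325, a call was lost in 17 and gained in 2, and the sign turned in 4. The sign turned only for differences that had not passed: SRGN on day 6 against day 0 without replicate 1 of day 0 (-0.037, in a leave-one-out range of -0.037 to 0.256), and LAPTM5 on day 6 against day 3 with library size only (0.0061), without replicate 3 of day 3 (0.156) and without replicate 1 of day 6 (0.053, in a leave-one-out range of -0.166 to 0.156). The lost and gained calls concern LCP1 and EVI2B as given above, and the cause was not tested. With testing limited to genes averaging 5 CPM or more, where LAPTM5, EVI2B and PTPRC are not tested, 3, 3 and 1 of the other 4 genes were called in the 3 comparisons, with 42.1%, 53.5% and 11.3% of all tested genes called (4648, 5910 and 1248). A fit of only days 6 and 3 called 4331, and leaving out 1 library at a time gave 1606 (without replicate 2 of day 3) to 4681 (without replicate 2 of day 0), against 2497. Deviations from the day mean correlated at r from -0.16 to 0.236 between same-numbered libraries of different days. Between differently numbered libraries r ran from -0.278 to 0.253. With 3 libraries per day and replicate 2 of day 0 standing apart, this check cannot decide whether the numbers mark a pairing. With the replicate number as a block 6113, 8305 and 2293 genes were called, and 5, 5 and 2 of the 7. LCP1 on day 6 against day 3 was the 1 call of the 7 genes that the block removed (adjusted p = 0.0652). With library size only the median of all genes on day 6 against day 0 was 0.128 on the log2 scale. LYZ was then -0.63 and LCP1 -0.26 there, while CORO1A and LAPTM5 stayed above that median. Counts of LAPTM5, EVI2B and PTPRC limit what these libraries can show, as the width of their intervals states. Without a vehicle group of days 3 and 6, inhibitor and time in culture cannot be told apart.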
